A study of Homo sapiens with 15 samples.

Results

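The genes described here are 50 genes of mitosis, the spindle and the kinetochore, taken by name from the gene symbols of the table. All 50 were found among 39133 genes, and all 50 passed the filter on low counts that left 20309 genes for testing. RNA was measured in HepG2, an established human hepatocellular carcinoma line labelled wild type, in 5 groups of 3 libraries. The control cells received no palmitate and no butyrate. The other 4 groups all received palmitate, a saturated fatty acid that the series uses to induce insulin resistance, and its dose is labelled 200 mM, a unit whose correctness is not known. One of them received palmitate alone, and the others also received sodium butyrate at 0.5 mM (low), 1 mM (medium) or 1.5 mM (high). Harvest was at 48 h throughout. By the names of the libraries, cells of the palmitate group had palmitate for 48 h, whereas butyrate-treated cells had palmitate for 24 h followed by butyrate for 24 h. The effect of butyrate and that of this difference in timing cannot be told apart, and no group received butyrate without palmitate. The series text calls the replicates biological, and all libraries carry the same batch label.

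Mitosis begins when kinases condense the chromosomes and build the spindle from microtubules. The kinetochore is assembled on centromere chromatin marked by CENPA and holds the chromosome to microtubules through the NDC80 complex. The spindle checkpoint blocks CDC20 and the anaphase-promoting complex until every kinetochore is attached, after which securin is degraded and separase opens the cohesin rings. Transcripts of these genes accumulate late in the cell cycle, so in a dividing culture their level also follows the share of cells near mitosis. Butyrate, made by gut bacteria, inhibits histone deacetylases, and inhibitors of this class are known to arrest dividing cells. In bulk RNA, fewer cells that express a gene and less RNA per cell cannot be told apart.

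Nearly the whole set was lower at high butyrate. Summed over the 50 genes, the level was 7472 ± 12.3 CPM (counts scaled to library size) in control and 7796 ± 357 in palmitate. With low, medium and high butyrate it was 5993 ± 168, 5751 ± 177 and 3015 ± 125 (SD, n = 3). Against palmitate, 49 of the 50 genes fell at high butyrate and none rose, where 33.8% of all genes tested fell and 37.7% rose. The median log2 change of the 50 was -1.70, beside 0.06 over all genes tested, and the genes called ran from -3.16 to -0.40. Of the 50, 42 were called and at least 2-fold lower (13.5% of all genes) and 14 were at least 4-fold lower (2.84%). Calls rest on edgeR's quasi-likelihood test with Benjamini-Hochberg adjustment over all genes tested and a threshold of 0.05, and every adjusted p below comes from it unless another method is named.

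The same set fell less at the lower doses. At low butyrate 39 of the 50 fell and none rose, with a median of -0.50, where 24% of all genes fell and 25.9% rose. At medium butyrate 40 fell and none rose, with a median of -0.60, where 24.4% of all genes fell and 27.1% rose. Among the 5575 genes with an average log2 CPM over 5, closer to most of the 50 in level, the share that fell was 43.6% at low, 44.7% at medium and 55.5% at high butyrate. The 3 doses were each compared with the same palmitate libraries, so their values are not independent of each other.

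**Figure D1:**
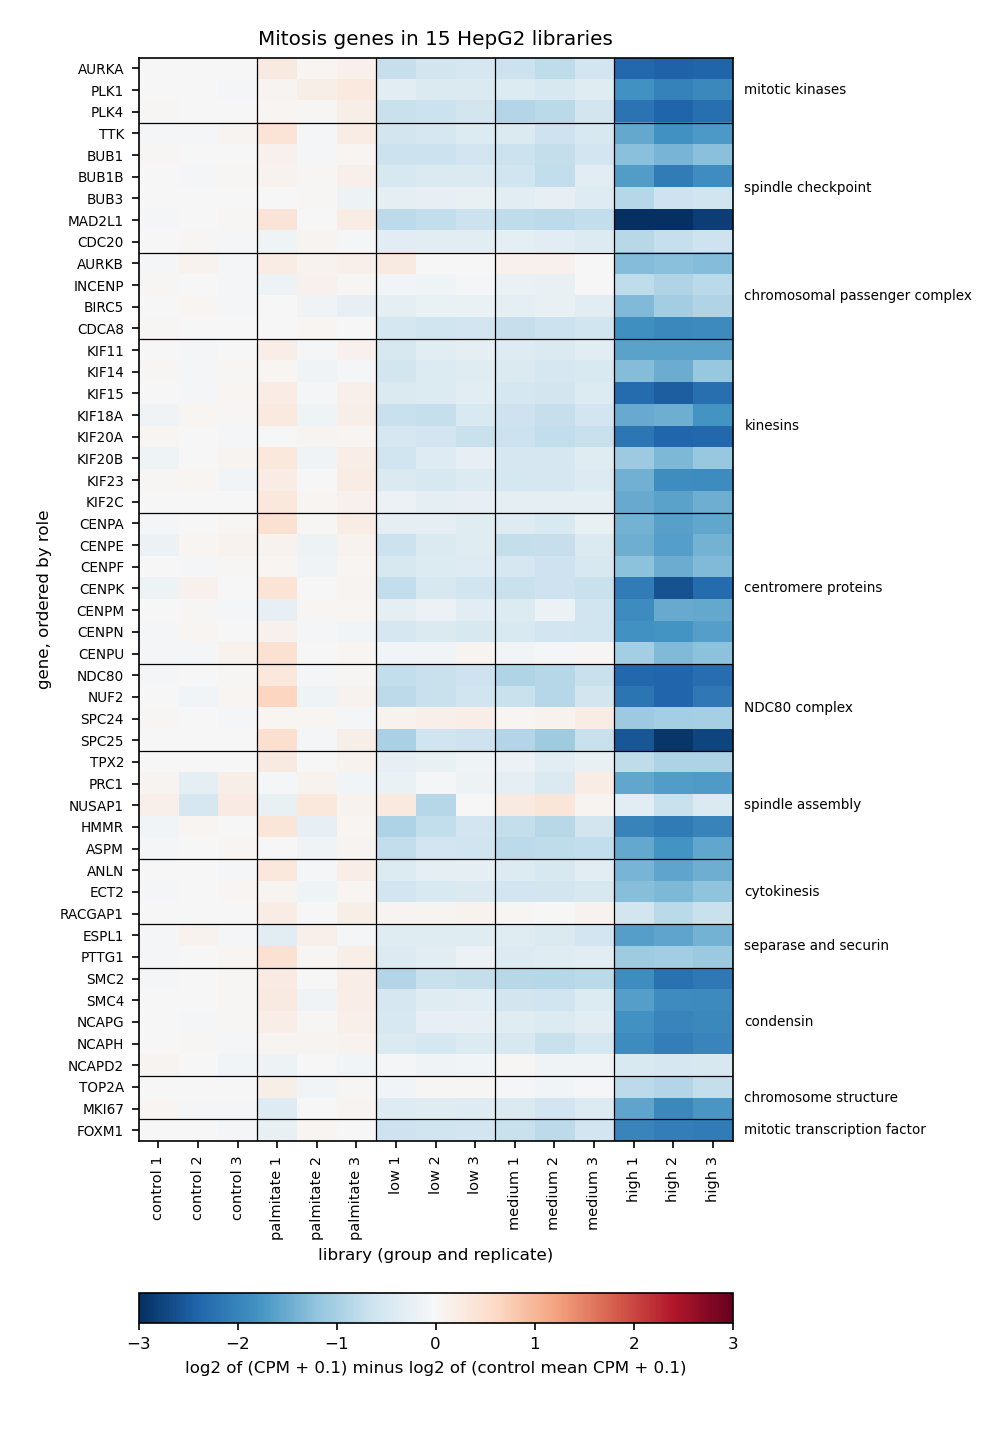
Log2 level of each of the 50 genes in each of the 15 libraries relative to its mean in the control libraries, with genes ordered by role. The 3 high butyrate columns are the lowest for 49 of the 50 genes. The rows of AURKB, INCENP, CENPU, SPC24, RACGAP1, NCAPD2 and TOP2A are among those that stay near the control level at low and medium butyrate.

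Many promoters of these genes carry a pair of elements, the CHR (cell cycle genes homology region) and CCAAT boxes, which are known as binding sites of the MuvB complexes and of NF-Y. RefSeq promoter windows on GRCh38.p14, from 250 bases before to 50 after a start, were at hand for 42 of the 50 genes, in 49 windows, since some genes have more than 1 start. The windows of AURKB, PTTG1 and ECT2 overlap, so that 1 CHR and 4 CCAAT matches are counted in both windows of a gene in the tallies below. The CHR core was searched as TTTGAA or TTCGAA and the CCAAT box as CCAAT, both on either strand. The CHR core stood in 34 of 49 windows (69.4%), beside 16.4% of all 35116 windows in the RefSeq table. A CCAAT box also stood in 34 of 49 (69.4%), beside 34.6% of all windows. Both stood together in 24 of 49, beside 6.38% of all windows. The 44 CHR matches (43 separate sites) had their median at position -23 from the start and 33 lay within 60 bases of it, while the 73 CCAAT matches (69 separate sites) had theirs at -79 and 48 lay between 120 and 30 bases upstream. Positions were not read over all windows. Within the 150 bases before the start, the CHR core stood in 20 of 49 windows (7.87% of all windows) and both motifs in 15 of 49 (2.1%). In windows of KIF14, NCAPH, KIF20B, KIF11 and MKI67, and in a PLK4 window, the first bases after the start were not found in a GENCODE 29 transcript. Positions there are less certain. A match is a description of letters and not evidence of a bound factor. The windows of AURKA, TTK, BUB3, CENPM, BIRC5, TPX2, RACGAP1 and FOXM1 were not used here.

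**Figure D2:**
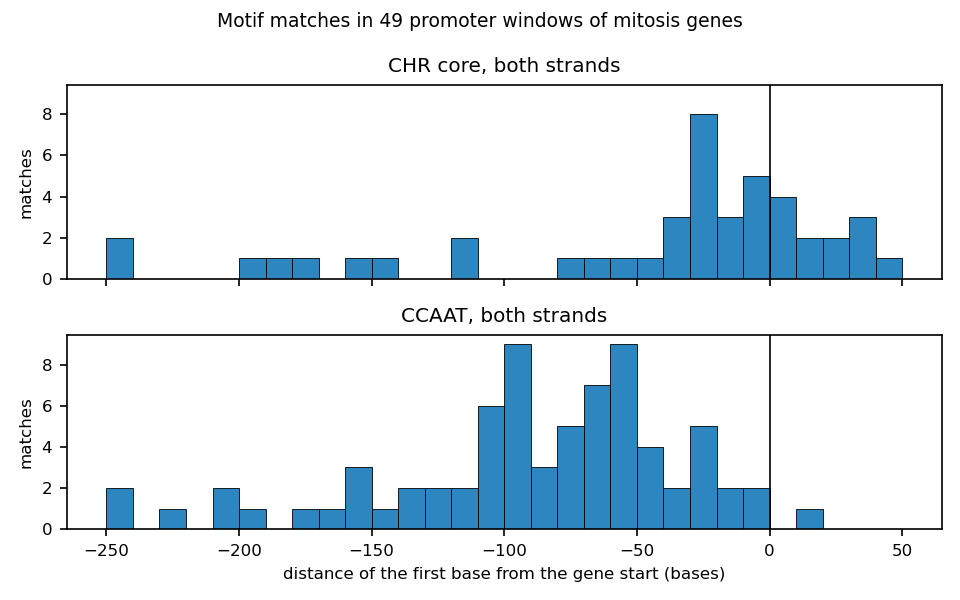
Positions of CHR core and CCAAT matches, in bases from the transcription start, in 49 promoter windows of 42 genes. CHR matches gather at the start, with a median of -23, and CCAAT matches lie upstream, with a median of -79.

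The 150 bases before the start are shown as examples for 4 genes that fell at all 3 doses and for 2 that fell at high butyrate alone. They do not stand for a layout of either dose shape. Both motifs stood together in 19 of 40 windows of the genes that fell at all 3 doses. The same held in 4 of 8 windows of those that fell at high butyrate alone. Capitals mark the matches to the CHR core and to CCAAT, on either strand (CCAAT reads ATTGG on the other). PLK1 lies at chr16:23678739-23678888, plus strand, CDCA8 at chr1:37692366-37692515, plus strand, and HMMR at chr5:163460482-163460631, plus strand. CDC20 lies at chr1:43358831-43358980, plus strand, INCENP at chr11:62123861-62124010, plus strand, and SPC24 at chr19:11155783-11155932, minus strand.
PLK1: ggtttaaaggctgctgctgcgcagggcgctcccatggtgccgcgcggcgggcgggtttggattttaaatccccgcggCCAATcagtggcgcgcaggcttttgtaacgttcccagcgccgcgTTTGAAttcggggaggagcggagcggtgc
CDCA8: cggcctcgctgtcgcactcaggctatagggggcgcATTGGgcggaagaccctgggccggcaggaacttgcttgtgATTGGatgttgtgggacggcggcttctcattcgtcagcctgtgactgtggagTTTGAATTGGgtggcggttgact
HMMR: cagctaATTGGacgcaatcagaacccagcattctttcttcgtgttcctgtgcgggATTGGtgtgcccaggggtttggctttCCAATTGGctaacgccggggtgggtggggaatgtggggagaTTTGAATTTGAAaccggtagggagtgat
CDC20: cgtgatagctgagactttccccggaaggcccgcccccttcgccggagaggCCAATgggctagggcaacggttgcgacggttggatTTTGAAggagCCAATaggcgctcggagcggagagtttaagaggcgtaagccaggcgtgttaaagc
INCENP: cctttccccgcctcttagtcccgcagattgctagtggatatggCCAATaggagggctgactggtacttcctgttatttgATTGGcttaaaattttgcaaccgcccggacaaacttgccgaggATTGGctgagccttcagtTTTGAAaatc
SPC24: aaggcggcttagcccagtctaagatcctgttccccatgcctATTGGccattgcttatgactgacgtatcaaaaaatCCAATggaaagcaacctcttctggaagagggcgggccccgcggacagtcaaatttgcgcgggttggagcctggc
In PLK1 a CCAAT box is followed by a CHR core, in CDCA8 the core runs into a last CCAAT box, in HMMR the core is doubled, and in CDC20 it lies between CCAAT boxes. INCENP, which was not called at the lower doses, also has CCAAT boxes followed by a CHR core. SPC24 shows CCAAT boxes and no CHR core in these letters. Over all windows, the CHR core stood in 29 of 40 windows of the genes that fell at all 3 doses and in 4 of 8 windows of those that fell at high butyrate alone. A CCAAT box stood in 25 of the 40 and in 8 of the 8. Counted once per gene, the CHR core was found in 28 of 34 and 4 of 7 genes, and a CCAAT box in 24 of 34 and 7 of 7. The numbers are small, and the motifs were not set against the responses with a test.

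The 3 genes grouped here as mitotic kinases showed some of the deepest falls. Other mitotic kinases of the 50 are described with their complexes and fell less at high butyrate. Their log2 changes were -1.44 for AURKB, -1.36 for BUB1 and -1.90 for TTK, and AURKB was not called at the lower doses. All 3 genes of the group (AURKA, PLK1 and PLK4) fell at every dose, with a median log2 change of -0.72 at low, -0.82 at medium and -2.39 at high butyrate. AURKA, the kinase that matures centrosomes and builds the spindle poles, was at 279, 281 and 281 CPM in the controls, 340.4, 294 and 306 with palmitate alone, 175, 191 and 197 with low, 180.2, 166 and 188 with medium and 54.8, 51.9 and 53.1 with high butyrate. Its high butyrate libraries lay far below all others, and those of the lower doses lay between them and palmitate. AURKA changed by -0.74 ± 0.07 (SE; adjusted p = 1.31e-08) at low and by -2.56 ± 0.07 (SE; adjusted p = 1.63e-17) at high butyrate, where it was 5.89-fold lower than in palmitate. PLK1, a kinase that acts from mitotic entry to cytokinesis and whose promoter is shown above, was at 205, 207 and 201 CPM in the controls, 216, 231 and 250.4 with palmitate alone, 165, 152 and 151 with low, 152, 146 and 158 with medium and 58.4, 50.3 and 53.4 with high butyrate. Here too no library of the high dose came near any other group. PLK1 changed by -0.58 ± 0.07 (SE; adjusted p = 5.09e-07) at low and by -2.11 ± 0.07 (SE; adjusted p = 2.21e-16) at high butyrate, 4.31-fold lower. PLK4, the kinase that starts centriole duplication, averaged 81.8 ± 4.17 CPM in palmitate and 15.6 ± 1.05 in high butyrate, 5.26-fold lower (adjusted p = 3.03e-16).

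All 6 spindle checkpoint genes fell at all 3 doses, but over a wide range. MAD2L1, which encodes the checkpoint protein MAD2 that binds CDC20, had the deepest fall of the 50, and its partner CDC20, the activator of the anaphase-promoting complex, one of the smallest. MAD2L1 was at 94.1, 95.6 and 99.5 CPM in the controls, 126, 95.99 and 112 with palmitate alone, 56.00, 57.5 and 61.5 with low, 56.97, 55.97 and 57.5 with medium and 11.9, 11.8 and 13.5 with high butyrate. The libraries of each dose lay below every control and palmitate library, and those of the high dose were the lowest. It changed by -0.93 ± 0.08 (SE; adjusted p = 4.46e-09) at low and -3.16 ± 0.09 (SE; adjusted p = 1.47e-17) at high butyrate, 8.94-fold lower than in palmitate. CDC20 was at 180.0, 184 and 175 CPM in the controls, 164, 191 and 174 with palmitate alone, 143, 143 and 144 with low, 147, 142 and 134 with medium and 101, 112 and 117 with high butyrate. Groups of low and medium butyrate overlapped, and both lay between palmitate and high butyrate. CDC20 changed by -0.30 ± 0.07 (SE; adjusted p = 0.000839) at low and by -0.68 ± 0.07 (SE; adjusted p = 9.2e-09) at high butyrate, 1.61-fold lower.

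BUB1 and BUB3 encode partners at the kinetochore, where BUB1 kinase is carried by BUB3. BUB1 was at 195, 189 and 187 CPM in the controls, 209, 186 and 199.6 with palmitate alone, 122, 122 and 127 with low, 121, 117 and 127 with medium and 79.9, 72.9 and 79.4 with high butyrate. Its low and medium libraries lay well below palmitate, and BUB1 had the largest share of its high-dose log2 change already at low butyrate (50.3%). BUB1 changed by -0.68 ± 0.06 (SE; adjusted p = 1.14e-08) at low and -1.36 ± 0.06 (SE; adjusted p = 3.49e-14) at high butyrate. BUB3 was at 281, 277 and 286 CPM in the controls, 279.9, 289.6 and 254 with palmitate alone, 231, 236 and 243 with low, 224, 237 and 217 with medium and 156, 183 and 187 with high butyrate. The low and medium libraries lay just below palmitate, and the high butyrate libraries were the lowest. BUB3 changed by -0.65 ± 0.07 (SE; adjusted p = 4.1e-08) at high butyrate, and by -0.21 ± 0.07 (SE; adjusted p = 0.0152) at low butyrate, a call that was lost when palmitate replicate 2 or low butyrate replicate 1 or 2 was left out (adjusted p = 0.0525 to 0.0553) and with library totals alone (0.112). BUB1B, which encodes the checkpoint protein BUBR1, and TTK, the kinase MPS1 that starts checkpoint signalling, fell 3.91-fold and 3.74-fold at high butyrate (adjusted p = 5.96e-14 and 2.57e-13).

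**Figure D3:**
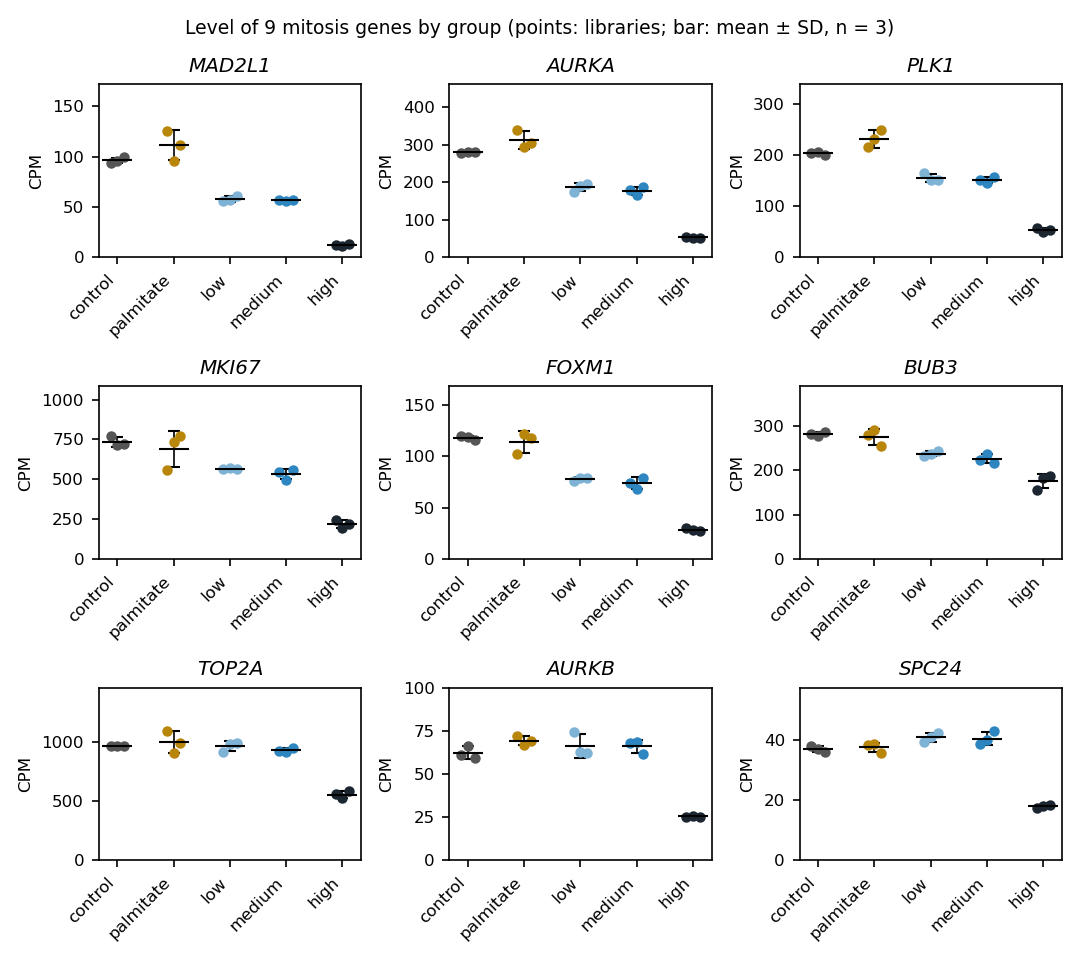
CPM per library in the 5 groups for 9 genes, each point a library and each bar the mean ± SD of 3. High butyrate libraries of the genes shown lie below all the others, while AURKB, SPC24 and TOP2A were not called at low and medium butyrate.

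The chromosomal passenger complex, which corrects wrong attachments at centromeres and then moves to the midzone, had 1 member that fell at all 3 doses, CDCA8 (borealin). Its kinase AURKB, the scaffold INCENP and the subunit BIRC5 (survivin) fell at high butyrate and were not called at the lower doses. The difference between these subunits was not tested. AURKB was at 61.1, 66.8 and 59.6 CPM in the controls, 72.6, 67.1 and 69.3 with palmitate alone, 74.8, 63.1 and 62.3 with low, 68.4, 68.8 and 62.05 with medium and 25.4, 26.1 and 25.3 with high butyrate. The palmitate libraries lay just above control, the low and medium libraries overlapped both, and the high dose stood alone below them. The change of AURKB was -0.06 ± 0.07 (SE; adjusted p = 0.509) at low and -1.44 ± 0.08 (SE; adjusted p = 2.46e-13) at high butyrate, with a 95% interval of -0.21 to 0.09 at low. INCENP was at 91.9, 88.9 and 87.9 CPM in the controls, 80.7, 97.4 and 91.2 with palmitate alone, 84.9, 82.5 and 87.5 with low, 78.1, 76.3 and 89.6 with medium and 52.8, 47.5 and 51.5 with high butyrate. Its low and medium libraries overlapped those of palmitate, and it changed by -0.08 ± 0.07 (SE; adjusted p = 0.392) at low and -0.83 ± 0.07 (SE; adjusted p = 1.93e-09) at high butyrate. At medium butyrate INCENP was not called (-0.14 ± 0.07 SE, adjusted p = 0.111), but was called lower without palmitate replicate 1 (adjusted p = 0.0119) or medium butyrate replicate 3 (adjusted p = 0.0229).

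BIRC5 was at 168, 175 and 163 CPM in the controls, 166, 156 and 142 with palmitate alone, 137, 148 and 146 with low, 141, 144 and 134 with medium and 67.3, 81.5 and 90.3 with high butyrate. Palmitate overlapped both lower doses, and only the high dose stood apart. BIRC5 changed by -0.11 ± 0.08 (SE; adjusted p = 0.298) at low and -0.96 ± 0.08 (SE; adjusted p = 1.21e-09) at high butyrate. CDCA8 was at 96.8, 94.6 and 94.3 CPM in the controls, 96.5, 99.9 and 96.7 with palmitate alone, 66.5, 62.9 and 64.2 with low, 59.4, 60.7 and 63.3 with medium and 26.6, 24.8 and 25.5 with high butyrate. The 3 replicates were tight in every group, and the lower doses did not touch palmitate. CDCA8 changed by -0.60 ± 0.06 (SE; adjusted p = 1.77e-08) at low and -1.93 ± 0.06 (SE; adjusted p = 4.53e-17) at high butyrate, 3.81-fold lower.

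The 8 kinesins, motors that slide and depolymerise spindle microtubules or act at the midzone, all fell at all 3 doses. Their median log2 change was -0.53 at low, -0.61 at medium and -1.71 at high butyrate. KIF15, which helps keep the spindle bipolar, had the largest change of the group. It was at 67.6, 65.00 and 70.5 CPM in the controls, 79.4, 66.3 and 74.7 with palmitate alone, 50.03, 50.7 and 54.7 with low, 47.1, 46.5 and 50.6 with medium and 13.6, 12.04 and 13.9 with high butyrate. No butyrate library overlapped palmitate, and the high dose was the lowest by a wide margin. KIF15 changed by -0.50 ± 0.07 (SE; adjusted p = 8.09e-06) at low and -2.48 ± 0.08 (SE; adjusted p = 1.12e-16) at high butyrate, 5.57-fold lower. KIF11 (Eg5), which pushes the poles apart, was at 177, 169.8 and 177 CPM in the controls, 202, 169 and 191 with palmitate alone, 126, 137 and 145 with low, 133, 129 and 140.2 with medium and 57.3, 57.2 and 57.6 with high butyrate. High butyrate libraries of KIF11 agreed within 1 CPM of each other and lay under all others. KIF11 changed by -0.46 ± 0.07 (SE; adjusted p = 1.02e-05) at low and -1.71 ± 0.07 (SE; adjusted p = 5.78e-15) at high butyrate.

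KIF20A (MKLP2), which brings the passenger complex to the midzone, was at 160.1, 155 and 149 CPM in the controls, 155, 164 and 161 with palmitate alone, 108, 104 and 97.1 with low, 98.4, 92.4 and 96.4 with medium and 34.1, 29.5 and 29.9 with high butyrate. Its groups were ordered palmitate, low and medium together, then high, with no overlap of high butyrate with any other. KIF20A changed by -0.63 ± 0.06 (SE; adjusted p = 6.67e-08) at low and -2.36 ± 0.07 (SE; adjusted p = 2.66e-17) at high butyrate, 5.13-fold lower. The remaining 5 motors also fell at high butyrate. KIF23 (MKLP1), the centralspindlin motor, was 3.68-fold lower, KIF18A, which damps chromosome movement, 3.27-fold, and KIF2C (MCAK), a microtubule depolymeriser, 3.25-fold (adjusted p = 9.02e-14, 6.21e-12 and 2.88e-15). KIF20B and KIF14, which act in cytokinesis, were 2.52-fold and 2.43-fold lower (adjusted p = 1.09e-10 and 4.21e-12).

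Of 7 centromere proteins, all fell at high butyrate, 6 at medium and 5 at low. CENPA, the histone H3 variant that marks the centromere, was at 45.3, 46.6 and 47.5 CPM in the controls, 63.8, 47.9 and 54.2 with palmitate alone, 38.1, 37.8 and 36.2 with low, 35.3, 33.9 and 40.1 with medium and 17.4, 14.9 and 15.6 with high butyrate. All butyrate libraries lay below all palmitate libraries, and palmitate replicate 1 was the highest library. CENPA changed by -0.57 ± 0.09 (SE; adjusted p = 1.73e-05) at low and -1.79 ± 0.09 (SE; adjusted p = 1.9e-13) at high butyrate. CENPE, a kinetochore kinesin that moves chromosomes to the equator, was at 90.3, 105 and 109 CPM in the controls, 110.0, 92.1 and 109 with palmitate alone, 64.6, 74.7 and 79.6 with low, 62.4, 62.9 and 75.7 with medium and 36.6, 32.3 and 37.8 with high butyrate. High butyrate was lowest again, with no overlap. CENPE changed by -0.51 ± 0.10 (SE; adjusted p = 0.000171) at low and -1.54 ± 0.10 (SE; adjusted p = 7.62e-12) at high butyrate.

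CENPF, a large kinetochore and nuclear matrix protein, was at 318, 314 and 329 CPM in the controls, 332, 296 and 334 with palmitate alone, 229, 240.1 and 243 with low, 225, 208 and 229.7 with medium and 136, 114 and 127 with high butyrate. Control and palmitate overlapped and the 3 doses lay below both. CENPF changed by -0.43 ± 0.07 (SE; adjusted p = 2.71e-05) at low and -1.35 ± 0.07 (SE; adjusted p = 2.85e-13) at high butyrate. CENPK, a subunit of the constitutive centromere network, had the largest change of this group and was at 23.5, 28.4 and 26.4 CPM in the controls, 34.8, 25.96 and 27.7 with palmitate alone, 15.6, 18.8 and 17.3 with low, 16.4, 16.8 and 16.3 with medium and 6.01, 4.19 and 5.20 with high butyrate. The 3 high butyrate libraries did not reach the other doses. CENPK changed by -0.78 ± 0.11 (SE; adjusted p = 7.33e-06) at low and -2.52 ± 0.12 (SE; adjusted p = 9.15e-14) at high butyrate, 5.75-fold lower.

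The other subunits of that network responded less evenly at the lower doses. CENPN, which reads CENPA nucleosomes, fell at all 3 doses and was 3.37-fold lower at high butyrate (adjusted p = 2.49e-14). CENPM was 3.05-fold lower at high butyrate (adjusted p = 5.52e-11) and not called at low (-0.23 ± 0.11 SE, adjusted p = 0.094), unless palmitate replicate 1 was left out (adjusted p = 0.0193). At medium butyrate CENPM fell by 0.35 on the log2 scale (adjusted p = 0.011), a call lost without palmitate replicate 3 (adjusted p = 0.0546), without medium butyrate replicate 3 (adjusted p = 0.0774) or with library totals alone (adjusted p = 0.0538). CENPU fell 2.61-fold at high butyrate (adjusted p = 2.28e-10) but was not called at low (-0.21 ± 0.10 SE, adjusted p = 0.103) or medium (-0.22 ± 0.10 SE, adjusted p = 0.0852). Without palmitate replicate 2, CENPU was called lower at both (adjusted p = 0.02 and 0.0157).

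In the NDC80 complex, the rod that grips the microtubule, 3 of the 4 subunits were among the most lowered of the 50, and the remaining one, SPC24, was not called below the high dose. NDC80 was at 54.4, 57.7 and 58.2 CPM in the controls, 71.2, 54.2 and 57.9 with palmitate alone, 33.8, 35.6 and 36.9 with low, 30.4, 31.1 and 35.9 with medium and 11.1, 10.8 and 11.6 with high butyrate. Libraries of low and medium butyrate lay together below palmitate, and high butyrate lay below both. NDC80 changed by -0.79 ± 0.09 (SE; adjusted p = 1.93e-07) at low and -2.45 ± 0.09 (SE; adjusted p = 1.35e-15) at high butyrate, 5.48-fold lower. SPC25 was at 42.6, 43.7 and 43.5 CPM in the controls, 60.6, 42.2 and 48.7 with palmitate alone, 22.1, 28.4 and 28.3 with low, 23.3, 20.6 and 27.2 with medium and 7.17, 5.62 and 6.35 with high butyrate. The palmitate libraries were spread, replicate 1 being the highest, yet no butyrate library reached any of them. SPC25 changed by -0.94 ± 0.12 (SE; adjusted p = 1.46e-06) at low and -2.99 ± 0.13 (SE; adjusted p = 2.15e-14) at high butyrate, 7.93-fold lower. NUF2, the partner of NDC80 in its dimer, was 5.63-fold lower at high butyrate (adjusted p = 9.64e-13) and fell by 0.92 at low on the log2 scale (adjusted p = 5.72e-06).

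SPC24, which forms a dimer with SPC25, was at 37.97, 37.1 and 36.1 CPM in the controls, 38.4, 38.7 and 35.9 with palmitate alone, 39.6, 41.00 and 42.5 with low, 38.6, 39.9 and 43.00 with medium and 17.5, 18.1 and 18.4 with high butyrate. Its low butyrate libraries lay just above the palmitate libraries, its medium libraries overlapped them, and its high libraries lay far below. The change was 0.12 ± 0.06 (SE; adjusted p = 0.11) at low, 0.11 ± 0.06 (SE; adjusted p = 0.169) at medium and -1.06 ± 0.07 (SE; adjusted p = 3.89e-12) at high butyrate, with a 95% interval of -0.01 to 0.26 at low. SPC24 was called higher at low butyrate with library totals alone (adjusted p = 0.0282), with a minimum of 1 CPM in 3 libraries (0.0327) and on FPKM values (0.0164 and 0.0169), so a small rise at that dose is not settled. FPKM is the authors' deposited level, scaled for depth and for gene length.

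Of 5 spindle assembly factors 4 fell at high butyrate, and 3 of them (HMMR, ASPM and TPX2) also at the lower doses. HMMR, a microtubule-binding protein of the spindle poles, had the largest change of this group and was at 90.9, 99.5 and 97.5 CPM in the controls, 123, 80.9 and 99.4 with palmitate alone, 50.2, 57.4 and 64.6 with low, 58.7, 53.9 and 65.1 with medium and 24.04, 22.1 and 23.7 with high butyrate. Palmitate was spread, from 80.9 to 123 CPM, and still above every butyrate library. HMMR changed by -0.81 ± 0.11 (SE; adjusted p = 3.86e-06) at low and -2.12 ± 0.12 (SE; adjusted p = 6.71e-13) at high butyrate, 4.34-fold lower. ASPM, which works at the spindle poles, was 3.07-fold lower at high butyrate (adjusted p = 3.07e-14). TPX2, the activator of AURKA and among the most abundant of the set, averaged 492 ± 45.4 CPM in palmitate and 245 ± 15.2 in high butyrate, 2.003-fold lower (adjusted p = 3.78e-11). The log2 changes of TPX2 and its kinase AURKA in this comparison were -1.002 and -2.56, a difference that was not tested.

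PRC1 and NUSAP1, microtubule bundlers of the midzone and spindle, had very low values that are uncertain. In GENCODE 29, 58.4% of the exonic bases of PRC1 and 62.2% of those of NUSAP1 are shared with other genes. The genes that share them include protein-coding entries on the same strand, AC068831.7 for PRC1 and AC087721.2 for NUSAP1. PRC1 averaged 3.59 ± 0.244 CPM in palmitate and 1.08 ± 0.0681 in high butyrate, 3.31-fold lower (adjusted p = 4.21e-08). NUSAP1 was at 0.327, 0.171 and 0.351 CPM in the controls, 0.228, 0.377 and 0.309 with palmitate alone, 0.367, 0.112 and 0.283 with low, 0.358, 0.393 and 0.302 with medium and 0.200, 0.140 and 0.181 with high butyrate, and its change at high butyrate was -0.80 ± 0.48 (SE; adjusted p = 0.14). NUSAP1 was the only one of the 50 not called there. Shared bases also made up over 10% of the exons of NCAPG (33.1%), SMC4 (25.6%), CENPN (22.8%), FOXM1 (15.9%), PLK1 (12.5%), CENPU (11.7%) and BUB1B (10.2%). Their counts could hold or lack reads of a neighbour. The shared bases of BUB1B lie on the same strand (BUB1B-PAK6), so for BUB1B this holds at any strand setting of the counting. In the others the shared bases lie on the opposite strand, and the strand setting is not stated.

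All 3 cytokinesis genes fell at high butyrate, and ANLN and ECT2 also at the lower doses. ANLN (anillin), a scaffold of the contractile ring, had the largest change of the 3 and was at 248, 246 and 239.8 CPM in the controls, 304, 238 and 279 with palmitate alone, 185, 198 and 198 with low, 185, 176 and 195 with medium and 93.5, 81.2 and 88.9 with high butyrate. All butyrate libraries lay below all palmitate and control libraries. ANLN changed by -0.50 ± 0.08 (SE; adjusted p = 1.71e-05) at low and -1.64 ± 0.08 (SE; adjusted p = 7.28e-14) at high butyrate, 3.12-fold lower. ECT2, the exchange factor that activates RhoA at the equator, fell 2.41-fold at high butyrate (adjusted p = 3.51e-13). RACGAP1, the centralspindlin subunit that recruits ECT2, was not called at low (-0.05 ± 0.07 SE, adjusted p = 0.589) or medium butyrate (-0.10 ± 0.07 SE, adjusted p = 0.242) and fell 1.76-fold at high (adjusted p = 8.53e-10). At medium butyrate RACGAP1 was called lower without palmitate replicate 2 (adjusted p = 0.0463).

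Separase and its inhibitor both fell. ESPL1 (separase), the protease that cuts cohesin, was at 53.01, 59.2 and 53.1 CPM in the controls, 43.9, 60.9 and 54.00 with palmitate alone, 42.8, 42.8 and 42.7 with low, 42.7, 41.1 and 36.8 with medium and 17.4, 18.3 and 20.6 with high butyrate. The low butyrate libraries were nearly equal and just below the lowest palmitate library, and the high ones lay well below. ESPL1 changed by -1.49 ± 0.10 (SE; adjusted p = 9.48e-12) at high butyrate and by -0.31 ± 0.09 (SE; adjusted p = 0.00943) at low, the latter lost without palmitate replicate 2 (adjusted p = 0.0729) and with library totals alone (adjusted p = 0.0551). PTTG1 (securin) was at 168, 169 and 179 CPM in the controls, 237, 177 and 195 with palmitate alone, 129, 135 and 153 with low, 130.1, 134 and 139 with medium and 82.5, 82.9 and 79.99 with high butyrate. Palmitate replicate 1 was the highest library, and high butyrate lay below all others. PTTG1 changed by -0.55 ± 0.08 (SE; adjusted p = 1.52e-05) at low and -1.31 ± 0.09 (SE; adjusted p = 9.09e-12) at high butyrate.

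Of 5 subunits of condensin I, the ring that compacts mitotic chromosomes, all fell at high butyrate and 4 at the lower doses. SMC2, a core ATPase of the ring, was at 100.2, 104 and 106 CPM in the controls, 122, 103 and 119 with palmitate alone, 55.97, 64.7 and 63.4 with low, 57.7, 57.2 and 59.5 with medium and 28.3, 21.8 and 23.5 with high butyrate. The low and medium libraries lay below palmitate, and the high libraries lay below those, with no overlap at either step. SMC2 changed by -0.91 ± 0.08 (SE; adjusted p = 1.41e-08) at low and -2.23 ± 0.09 (SE; adjusted p = 2.34e-15) at high butyrate, 4.69-fold lower. The other ATPase, SMC4, the kleisin NCAPH and the HEAT-repeat subunit NCAPG were 3.89-fold, 4.18-fold and 4.12-fold lower at high butyrate (adjusted p = 3.02e-14, 1.4e-16 and 6.72e-16) and fell at both lower doses. NCAPD2, the second HEAT-repeat subunit, was at 287, 273 and 256 CPM in the controls, 246, 269.7 and 258 with palmitate alone, 263, 255 and 256 with low, 280.4, 252 and 252 with medium and 198, 192 and 194 with high butyrate. Its control, palmitate, low and medium libraries were intermixed. NCAPD2 changed by 0.00 ± 0.06 (SE; adjusted p = 0.996) at low and -0.40 ± 0.06 (SE; adjusted p = 7.47e-06) at high butyrate, the smallest change of the 49 genes called.

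Of TOP2A and MKI67, genes of chromosome structure, both fell at high butyrate, and MKI67 but not TOP2A was called at the lower doses, a difference that was not tested. TOP2A, the topoisomerase that untangles sister chromatids, was at 967, 968 and 967 CPM in the controls, 1097, 909.9 and 990.4 with palmitate alone, 921, 986 and 998 with low, 923, 919 and 950.1 with medium and 559.7, 529 and 585 with high butyrate. The low and medium libraries overlapped those of palmitate, and high butyrate lay below all others. TOP2A changed by -0.05 ± 0.07 (SE; adjusted p = 0.619) at low, -0.10 ± 0.07 (SE; adjusted p = 0.233) at medium and -0.84 ± 0.07 (SE; adjusted p = 5.75e-10) at high butyrate. At medium butyrate it was called lower without palmitate replicate 2 (adjusted p = 0.0477). MKI67 (Ki-67), the coat of mitotic chromosomes and a marker of proliferation, was at 772, 715 and 722 CPM in the controls, 561, 736 and 774 with palmitate alone, 565, 571 and 566 with low, 544, 495 and 556 with medium and 245, 192 and 220.4 with high butyrate. Palmitate replicate 1 lay below every low butyrate library, which made MKI67 the one overlap among the 39 genes called at that dose. In the other 38 all 3 low butyrate libraries lay below palmitate, as they did for 25.4% of all genes.

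MKI67 changed by -1.66 ± 0.10 (SE; adjusted p = 2.71e-12) at high butyrate, 3.15-fold lower. At low butyrate the change of MKI67 was -0.28 ± 0.10 (SE; adjusted p = 0.0198), a call lost without palmitate replicate 2 (adjusted p = 0.0651), palmitate replicate 3 (0.138) or low butyrate replicate 2 (0.057), with library totals alone (0.064) and with only the groups compared in the fit (0.0671). On FPKM values the low butyrate calls of MKI67, BUB3 and ESPL1 and the medium butyrate call of CENPM were lost as well. FOXM1, a transcription factor that drives many of the other genes, was at 119.6, 119 and 116 CPM in the controls, 102, 122 and 118 with palmitate alone, 76.5, 78.7 and 79.3 with low, 74.2, 68.3 and 79.4 with medium and 30.1, 28.2 and 27.5 with high butyrate. The 3 doses lay below palmitate, and high butyrate was the lowest by far. FOXM1 changed by -0.55 ± 0.07 (SE; adjusted p = 1.5e-06) at low, -0.63 ± 0.07 (SE; adjusted p = 2.09e-07) at medium and -1.998 ± 0.07 (SE; adjusted p = 7.87e-16) at high butyrate, 3.99-fold lower.

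The responses fell into a few dose shapes. In 39 genes the level was lower at all 3 doses, and the log2 change at low butyrate was 17.1% to 50.3% of that at high butyrate, with a median of 31.3%. In 9 genes (AURKB, INCENP, BIRC5, CENPU, SPC24, PRC1, RACGAP1, NCAPD2 and TOP2A) it was lower at high butyrate and not called at the lower doses. CENPM was lower at medium and high butyrate. These shapes were read from the calls, so a gene near the threshold may belong to either side. Both the 39 and the 9 had about the same median abundance, an average log2 CPM of 6.25 and 6.31.

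**Figure D4:**
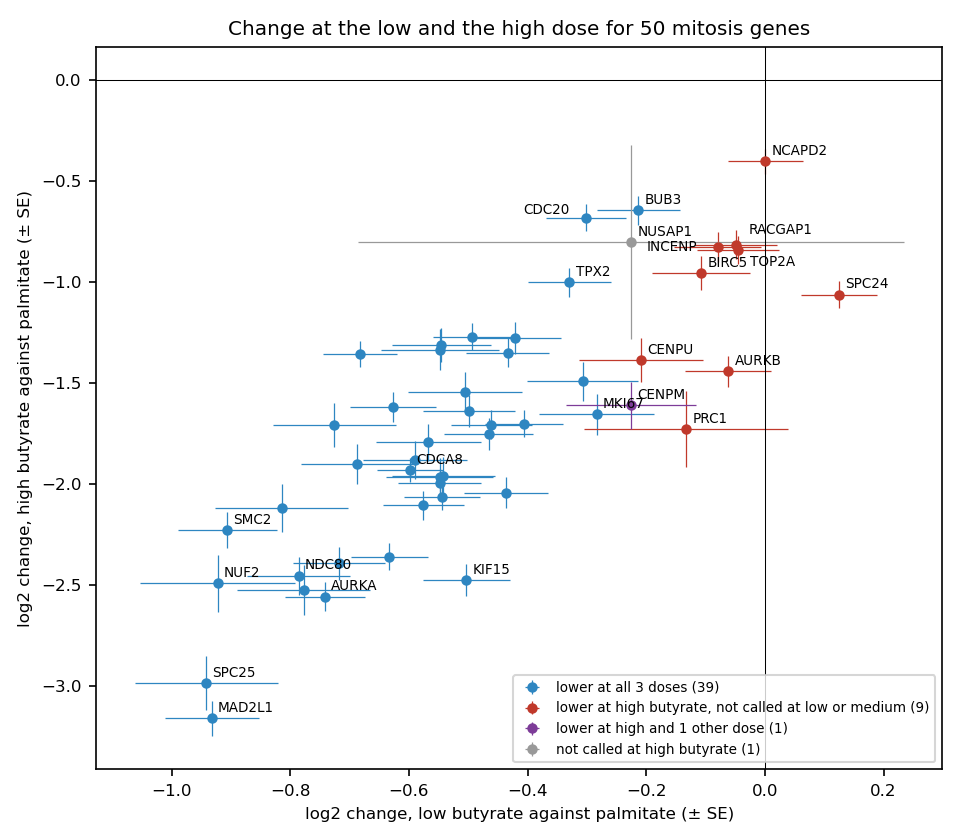
Log2 change against palmitate at low butyrate (x axis) and at high butyrate (y axis) for each of the 50 genes, with the dose shapes in colour. SPC24, NCAPD2, AURKB, TOP2A, RACGAP1 and INCENP are among the genes near 0 on the x axis while below 0 on the y axis. Both axes share the palmitate libraries.

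No gene was called between 0.5 and 1 mM, and nearly the whole set fell between 1 and 1.5 mM. Between medium and low butyrate, edgeR called 0 of the 50 genes, 0 were under an unadjusted p of 0.05, and DESeq2 called 0. Over all genes tested, 0% were called in either direction there. The log2 change was below 0 in 47 of the 50, beside 48% of all genes, with a median of -0.05. The largest in size, 0.44, was that of NUSAP1, which had few reads. MKI67 was the one gene of the 50 whose medium libraries lay all below its low libraries, beside 3.82% of all genes. From medium to high butyrate 49 of the 50 fell and none rose, where 28.7% of all genes fell and 26.9% rose. The median was -1.22, 32 were called and at least 2-fold lower (7.47% of all genes), and MAD2L1 changed most, -2.19 ± 0.09 (SE; adjusted p = 2e-14). AURKB and SPC24, not called at 0.5 and 1 mM, changed by -1.37 ± 0.08 (SE; adjusted p = 2.59e-12) and -1.17 ± 0.07 (SE; adjusted p = 3.65e-12) in that step.

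High butyrate was also below the untreated control. In that comparison 49 of the 50 fell and none rose (33.1% and 36.9% of all genes), with a median log2 change of -1.62, and 42 were called and at least 2-fold lower (12.9% of all genes). MAD2L1 was 7.75-fold, SPC25 6.80-fold and AURKA 5.27-fold lower than in control (adjusted p = 3.89e-17, 7.95e-14 and 4.24e-17). In 49 of the 50 genes, all but NUSAP1, the 3 high butyrate libraries lay below all 12 other libraries, beside 23.3% of all genes. Transcripts with mitochondrial gene symbols took 8.72% ± 0.151 of counts in the control libraries, 9.71% ± 0.952 with palmitate alone, and 10.3% ± 0.670, 10.0% ± 1.10 and 12.7% ± 1.21 with low, medium and high butyrate (SD, n = 3). Their part in the fall of the 50 genes was not tested.

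None of the 50 was called in palmitate alone. Against control, edgeR called 0 of the 50, where it called 0.0345% of all genes higher and 0.0739% lower. DESeq2 called 0 of the 49 it gave an adjusted p (all but NUSAP1), where it called 2.08% of its genes higher and 1.1% lower. In the edgeR fit the median log2 change was 0.10, beside 0.00 over all genes, with 38 of 50 above 0. With library totals alone the median was 0.04, beside -0.06 over all genes. In the main edgeR fit, 9 of the 50 were under an unadjusted p of 0.05, all higher in palmitate. Over all genes, 7.8% were higher and 6.45% lower at that level. CENPA had the largest change, 0.25 ± 0.09 (SE; adjusted p = 0.207), followed by NUF2 with 0.24 ± 0.13 (SE; adjusted p = 0.406). In 8 of the 50 all palmitate libraries lay above all control libraries, beside 8.55% of all genes. Palmitate replicate 2 lay closest to control in several of these genes, among them MAD2L1, PTTG1 and CENPA. Without it, 7 of the 50 were called higher: TTK, MAD2L1, KIF2C, CENPA, NUF2, ANLN and PTTG1 (log2 changes from 0.23 to 0.39). Calls over all genes tested also grew without it, from 22 to 1175, with 3.75% higher and 1.84% lower. Whether any of the 50 was called higher thus rested on that library. Palmitate replicate 1 was the highest library in CENPA, NUF2 and MAD2L1 (63.8, 66.6 and 126 CPM). The median log2 change of the 50 was 0.05 without palmitate replicate 1, 0.15 without replicate 2 and 0.08 without replicate 3. The size of the rise thus also depended on which palmitate library was left out.

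Ratios between pairs of members, 5 of the 7 pairs being subunits of one complex, can be read without any scaling between libraries. The following ratios of FPKM were taken within each library, for pairs chosen after the values were seen, so they are a description with no test. SPC24 to SPC25 was 0.574, 0.547 and 0.534 in the controls, 0.408, 0.591 and 0.475 with palmitate alone, 1.15, 0.930 and 0.966 with low, 1.07, 1.25 and 1.02 with medium and 1.57, 2.07 and 1.87 with high butyrate. The ratio was higher in every butyrate library than in any library without it. NCAPD2 to SMC2 was 2.63 ± 0.229 in the controls, 2.26 ± 0.311 with palmitate alone, 4.22 ± 0.412 with low, 4.50 ± 0.320 with medium and 8.02 ± 0.911 with high butyrate (SD, n = 3).

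AURKB to CDCA8 was 0.704 ± 0.0461 in the controls, 0.766 ± 0.0435 with palmitate alone, 1.11 ± 0.0878 with low, 1.17 ± 0.101 with medium and 1.07 ± 0.0513 with high butyrate. Every butyrate library was above every library without it. From medium to high butyrate AURKB and CDCA8 changed by -1.37 and -1.25 on the log2 scale. INCENP to CDCA8 went from 0.496 ± 0.0394 in palmitate to 0.712 ± 0.0238 in low and 1.07 ± 0.0295 in high butyrate. BIRC5 to CDCA8 went from 0.9996 ± 0.0816 to 1.41 ± 0.0940 and 1.97 ± 0.333. RACGAP1 to ECT2 was 1.17 ± 0.0113 in palmitate, 1.60 ± 0.0793 in low and 1.61 ± 0.116 in high butyrate. TOP2A to MKI67 was 3.004 ± 0.813 in palmitate, where replicate 1 stood out at 3.94, and 5.17 ± 0.496 in high butyrate.

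**Figure D5:**
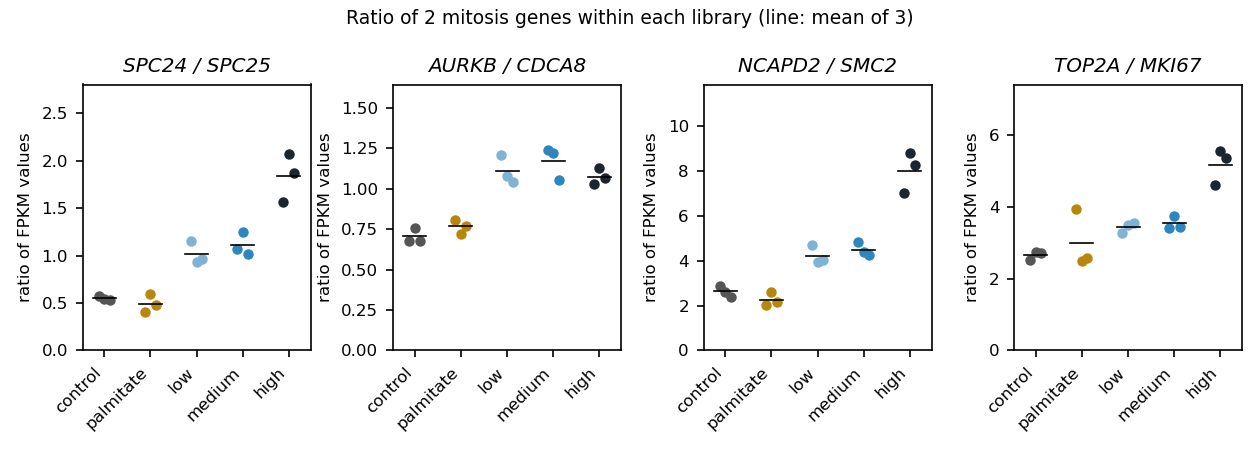
Ratio of FPKM between 4 pairs of genes in each library, by group. SPC24 to SPC25 rises from 0.491 in palmitate to 1.02 in low and 1.84 in high butyrate, and AURKB to CDCA8 stays near 1.1 at all 3 doses.

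On the FPKM scale, which allows levels of different genes to be set side by side, TOP2A was the highest in control at 152 ± 1.53, before TPX2 at 124 ± 0.781, AURKA at 95.7 ± 1.43, CDC20 at 89.3 ± 2.39 and PTTG1 at 87.1 ± 3.46 (SD, n = 3). CDC20 and PTTG1 did not differ beyond their spread. At the lower end lay KIF18A at 5.44 ± 0.371 and CENPN at 5.16 ± 0.242, also within their spread, and then PRC1 and NUSAP1 with the shared exons. In high butyrate TOP2A was still first, at 91.9 ± 5.36. AURKA, which followed TOP2A and TPX2 in control and palmitate, was at 19.1 ± 0.302 in high butyrate, below CDC20 at 57.5 ± 5.72.

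Other genes of the same machinery, in lists outside the 50, were read in the same fit at high butyrate against palmitate. Of all genes tested 33.8% fell and 37.7% rose in that comparison, and 55.5% of those with an average log2 CPM over 5 fell. Of 31 other centromere and kinetochore genes 29 fell, ZWINT 10.7-fold and SKA1 6.43-fold, and 1 rose, MAD1L1, at 1.86-fold from a mean of 0.344 CPM (adjusted p = 0.0492). Of 23 other spindle and cytokinesis genes 20 fell, among them DEPDC1 at 8.09-fold and KIF22 at 3.22-fold. The other 3 rose: KIF3A, a motor of cilia, by 1.99-fold, and the kinases PLK3 and PLK2 by 1.95-fold and 1.68-fold (named after their values were seen). All 11 genes of mitotic entry fell, among them CCNB2, a cyclin B, at 4.07-fold and GTSE1 at 3.89-fold. Of 15 cohesin and other condensin genes 14 fell, CDCA5 (sororin) at 4.01-fold.

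The anaphase-promoting complex was divided, with 13 of 18 genes lower and 5 higher, beside 33.8% lower and 37.7% higher of all genes tested. Its inhibitor FBXO5 (EMI1) was 8.12-fold lower and its ubiquitin-conjugating enzyme UBE2C 3.59-fold lower, while UBE2S, the enzyme that extends the chains, was 1.67-fold higher. The other 4 that rose, named after their values were seen, were ANAPC11, ANAPC2, FZR1 and ANAPC5, by 1.57-fold to 1.20-fold. Among 13 regulators of these promoters, the MuvB subunits, E2F partners and NF-Y, 9 fell and 1 rose. MYBL2, which joins MuvB in late S phase, fell 2.66-fold. LIN52, a MuvB subunit, fell 3.36-fold, and NFYA rose 1.12-fold (adjusted p = 0.0467). At low butyrate 24% of all genes tested were lower and 25.9% higher, and 43.6% of those with an average log2 CPM over 5 were lower. The same lists had 25 of 31, 19 of 23, 10 of 11, 13 of 15, 11 of 18 and 8 of 13 genes lower at that dose, in the order given here. DNA replication genes, which act before mitosis, moved with them: 25 of 25 fell at high butyrate, CDC45 at 5.90-fold and MCM6 at 4.40-fold, and 18 fell and 1 rose at low butyrate, MCM3 at 1.19-fold higher (adjusted p = 0.00239).

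HepG2 identity was checked on 10 liver markers, whose summed level ran from 26043 to 37399 CPM over the 15 libraries. None of the 10 was at 0. At high butyrate against palmitate 6 of the 10 were called lower and 2 higher, beside 33.8% and 37.7% of all genes tested. The mean level of ALB was 5578 CPM in control, 6308 in palmitate and 2915 in high butyrate, and that of APOB was 5798, 5092 and 8889. TTR was low, with a mean of 14.2 CPM in control, 17.1 in palmitate and 17.5 in high butyrate. Markers of other cell types (12 genes) summed to between 1081 and 3038 CPM, most of it LYZ, at a mean of 2316 CPM in control and 983 in high butyrate. EPCAM, an epithelial adhesion gene, had a mean of 239 CPM in palmitate and 101 in high butyrate, while PTPRC, CD3E, CD68 and KRT5 stood at or near 0 in all groups. COL1A1, a fibroblast collagen, had a mean of 0.0595 CPM in palmitate and 16.8 in high butyrate, while COL3A1 had 0.0148 and 0.0963 and ACTA2, a smooth muscle actin, 19.3 and 9.39. The endothelial markers PECAM1 and VWF had 4.28 and 0.145 CPM in palmitate and 11.1 and 0.848 in high butyrate, and CDX2, an intestinal factor, 0.0114 and 0.654. The part of these marker shifts in the fall of the 50 genes was not tested. Total counts ran from 35349827 to 61086976 per library.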

How the data were processed

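RNA of HepG2 cells was extracted with TRIzol, selected for poly(A) and sequenced as read pairs, per the labels' protocols. The authors deposited gene counts and FPKM values in 1 table. The submitters' processing notes name FastQC, HISAT2, featureCounts, DESeq2 and GRCh38 (hg38) with no version. The strand setting is not given in the sources used here, and low counts were mostly even (69.19% of counts from 1 to 20), so both mates may have been counted.

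The deposited counts were tested with edgeR 4.0.16 (R 4.3.3) after filterByExpr and TMM scaling, with all 15 libraries in the quasi-likelihood fit and 1 coefficient per group. Benjamini-Hochberg adjustment ran over 20309 genes, and an adjusted p under 0.05 was a call. The biological coefficient of variation was 8.88%. CPM levels use TMM library sizes. The deposited FPKM values, which the authors scaled for gene length and depth, served for levels between genes, for ratios and, as log2(FPKM + 1), for a limma 3.58.1 alternative. DESeq2 1.42.0 was another alternative. Scripts were tested on simulated data.

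The members and lists were chosen with earlier results of these data known. Values by library are given for 20 panel genes and for the gene of largest change in each role at high butyrate against palmitate. Other lists name up to 2 called genes with the smallest adjusted p. SPC24, NUSAP1 and genes said to be chosen after their values were seen fall outside this rule, as do members given only by fold. Genes of the other lists named as ones that rose, such as MAD1L1, UBE2S and NFYA, also fall outside it. The labels give no pairing of libraries by replicate number, and none was used in the main fit. No interval or p-value covers more than the spread between these libraries.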

Additional observations from a re-analysis of the deposited data

How the results depend on the processing

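The number of the 50 genes called lower stayed within 1.5 times its value under every alternative except the stricter fold. With a change of at least 1.5-fold also required, 16 were lower at low butyrate and 26 at medium, where 6.4% and 7.39% of all genes were lower. One gene, SPC24, was called higher at low butyrate with library totals alone, with at least 1 CPM in 3 libraries, and on FPKM with a pseudocount of 1 or 0.1 (1 gene each). It was also called higher at medium butyrate with library totals alone and on FPKM with either pseudocount (1 gene each). The cause was not tested. Leaving out 1 library at a time gave 0 to 7 genes higher in palmitate than in control, the 7 without palmitate replicate 2 (where 3.75% of all genes were higher), and 37 to 40 lower at low, 39 to 43 at medium and 49 to 49 at high butyrate. High butyrate against medium butyrate and against control also gave 49 to 49. Among 2080 recomputed changes of the 28 genes named by rule, 17 were no longer called (BUB3, MKI67 and ESPL1, all at low butyrate) and 0 were reversed. Scaling by library totals alone moved the median log2 change of all genes at high butyrate against palmitate from 0.06 to 0.19, and that of the 50 from -1.70 to -1.57. With the replicate block the counts were 39, 40 and 49 lower at low, medium and high butyrate, and 0 in palmitate against control. Same-numbered libraries had correlations of their deviations from -0.06 to 0.05, so no shared effect of the number was seen. Such values cannot show whether those libraries were handled together. NUSAP1 and PRC1 had the lowest mean counts of the 50 (13.1 and 139.7), and both share most of their exonic bases with other genes. AC068831.7, which shares bases with PRC1, had a mean count of 284.5. Whether the low counts come from the shared bases was not tested.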
